A study of Mus musculus with 8 samples.

Results

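*Tcstv3*, *Tcstv1* and *AF067063* were followed in sorted embryonic stem cells (ESCs) through their 60-base probes on a 2-colour Agilent array. They were picked by probe name (Z00034921-1, Z00052514-1 and Z00030830-1), 1 probe for each gene, and make up 3 of the 42006 probes tested. The study sorted a reporter ESC line of the 129/Sv strain, in which the *Zscan4c* promoter drives the fluorescent protein Emerald, and asked how the *Zscan4* metastate behaves when the cells are given retinoic acid. The line serves as a model of that state only as far as Emerald follows *Zscan4*, and all groups carry the transgene. Cells with Emerald (Zscan4+) and without it (Zscan4-) were collected on day 5 either from regular medium (RM) or from RM with 1.5 µM all-trans retinoic acid (RA). Each RM sort was hybridized on 3 arrays and each RA sort on 1, and the labels call the RM replicates biological. Each array carried the sorted cells in Cy3 and a pooled RNA of cultured mouse cell lines, the Universal Mouse Reference, in Cy5.

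The name Tcstv stands for the two-cell-stage, variable group, and these genes were first described as transcripts of the 2-cell mouse embryo. They belong to the set of transcripts that appear around the activation of the embryonic genome. In ESC cultures, transcripts of this kind are found in the rare cells that pass through a transient state marked by *Zscan4*, a zinc finger gene linked to telomere maintenance. The molecular role of the Tcstv proteins is less well described than that of *Zscan4*, and none is assigned here.

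The sequences of the probes are shown because they set which transcripts the values can stand for. Capitals mark the longest run of bases that the *Tcstv1* and *AF067063* probes share, and the *Tcstv3* probe has no capitals because it does not hold that run.
Tcstv3: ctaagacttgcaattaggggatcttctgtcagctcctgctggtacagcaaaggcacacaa
Tcstv1: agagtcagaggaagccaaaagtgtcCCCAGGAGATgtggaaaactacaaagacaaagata
AF067063: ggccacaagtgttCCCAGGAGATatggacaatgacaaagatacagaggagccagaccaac

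The *Tcstv1* and *AF067063* probes were related in sequence. Their local alignment covered 45 positions, of which 37 held the same base, and the shared run was 10 bases long. The *Tcstv3* probe shared at most 6 bases in a row with either of them, counting both strands. No other probe of the array shared more than 15 bases with any of the 3. The probe with that run, which it shared with *Tcstv1*, had an RM rise of 0.13 (log2) and did not pass the test, with a limma adjusted p of 0.969. The longest run shared with *Tcstv3* and with *AF067063* was 13 bases. The probe sharing it with *Tcstv3* had an RM difference of 0.13 (adjusted p 0.942), while the one sharing it with *AF067063* had 1.17 (adjusted p 0.0529), which is under 3-fold.

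In the RefSeq annotation of GRCm38.p6 the 3 genes lie on chromosome 13 in a stretch of 31 annotated genes, which opens with *AF067063* and closes with *Tcstv3*. *Tcstv1* is the fourth gene of that order. The stretch holds 11 protein-coding genes and 13 pseudogenes, and many of its genes have no name beyond a predicted-gene symbol. Transcripts of related copies could bind the same probe, so each value stands for the probe and may sum several copies. The array design named no genome build, and where each probe falls within its transcript was not analysed here.

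**Figure D1:**
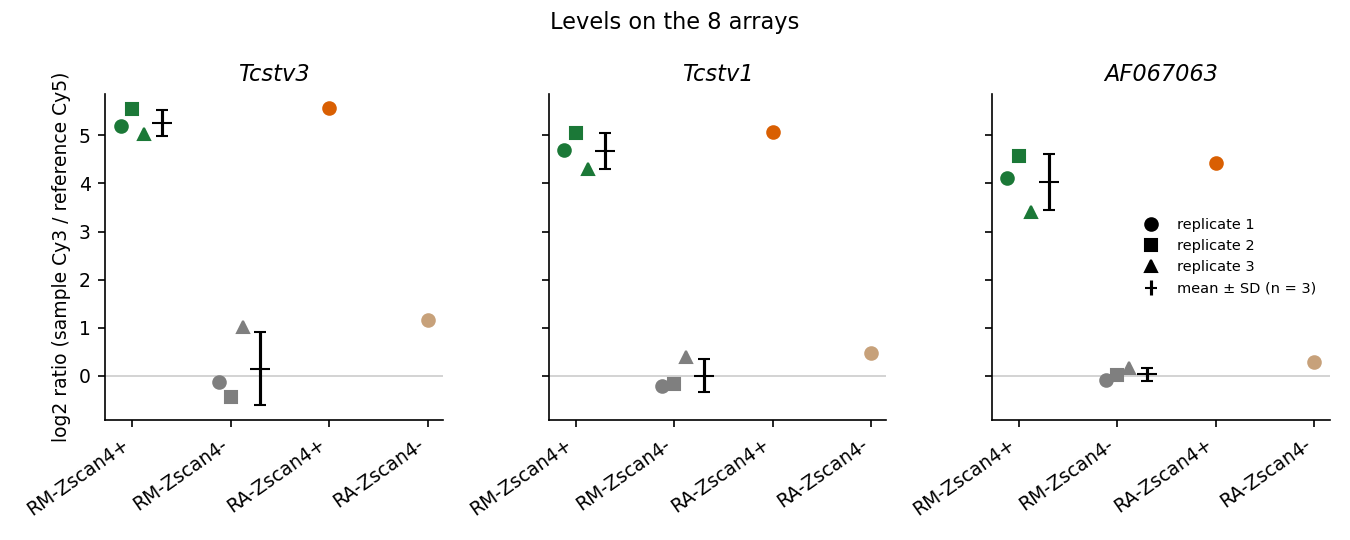
The log2 ratio of sample (Cy3) to reference (Cy5) is plotted for each gene on each of the 8 arrays, by group, with the replicate as the marker shape and the mean ± SD of the 3 RM arrays as bars. All RM-Zscan4+ points lie at 3.42 or above and all RM-Zscan4- points at 1.01 or below, and each single RA array lies near the RM group of the same sort.

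In RM, all 3 genes were much higher in Zscan4+ than in Zscan4- cells. The *Tcstv3* log2 ratio was 5.19, 5.55 and 5.03 in RM-Zscan4+ replicates 1, 2 and 3. In RM-Zscan4- it was -0.13, -0.43 and 1.01. The groups did not overlap, and replicate 3 of RM-Zscan4- stood above the other two. The mean was 5.26 ± 0.26 (SD, n = 3) in RM-Zscan4+ and 0.15 ± 0.76 (SD, n = 3) in RM-Zscan4-, so most of the spread came from the Zscan4- side. The difference of 5.10 (log2, SE 0.38, 95% interval 4.18 to 6.02) was a 34.4-fold rise, with a limma adjusted p of 0.0093. It ranked first among the 42006 probes.

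*Tcstv1* had log2 ratios of 4.70, 5.05 and 4.29 in RM-Zscan4+. It had -0.21, -0.17 and 0.40 in RM-Zscan4-. Again no array of one group reached the other, and replicate 3 was the lowest of the Zscan4+ arrays and the highest of the Zscan4- arrays. The rise was 4.67 (log2, SE 0.24, 95% interval 4.08 to 5.26), which is 25.5-fold, with a limma adjusted p of 0.0038. This rise had rank 7.

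*AF067063*, annotated as a protein-coding gene at the far end of the cluster from *Tcstv3*, had log2 ratios of 4.12, 4.56 and 3.42 in RM-Zscan4+. In RM-Zscan4- it had -0.09, 0.02 and 0.17. The groups were apart, and here the Zscan4- arrays lay close together (SD 0.13, n = 3) while the Zscan4+ arrays spread more (SD 0.58, n = 3). The rise was 4.00 (log2, SE 0.28, 95% interval 3.31 to 4.68), or 16.0-fold, with a limma adjusted p of 0.0076 and rank 21.

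All 3 genes thus rose by at least 3-fold at an adjusted p under 0.15, the thresholds used for the list of enriched probes. Of the 42006 probes, 81 did so, or 0.193%. The 3 genes owe their names to the study's list of probes high in RA-Zscan4+, so their RM calls are a description and no independent evidence. All 3 also had every RM-Zscan4+ array above every RM-Zscan4- array, as did 4.97% of the 41161 probes with a value on each RM array. The median difference over all probes was -0.01 (log2). The t-statistics that the methods describe were also rebuilt. They take the larger of a probe's own error variance and the mean over 500 probes of similar intensity, a model the methods call very conservative. The rises were the same, but the adjusted p was 0.475 for *Tcstv3*, 0.293 for *Tcstv1* and 0.445 for *AF067063*. Of the 42006 probes, 0 were called by these t-statistics and 627 had an unadjusted p under 0.05. RNA of a whole sort was measured, so more cells with these transcripts cannot be told apart from more transcript in each cell.

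Replicate numbers paired the RM arrays, and the size of the rise followed the pair in all 3 genes. For *Tcstv3* the rise was 5.32, 5.97 and 4.01 (log2) in pairs 1, 2 and 3. For *Tcstv1* it was 4.91, 5.21 and 3.89. For *AF067063* it was 4.21, 4.54 and 3.25. Pair 2 had the largest and pair 3 the smallest rise for each gene. The order was not particular to them, as *Zscan4* rose by 4.97, 5.37 and 4.05 in the same pairs. Most of the other metastate and 2-cell genes named below had that order too, but *Zfp352* and *Tdpoz5* rose least in pair 1. *Zscan4*, the gene whose promoter drives the reporter, had log2 ratios of 5.08, 5.59 and 5.03 in RM-Zscan4+ and of 0.10, 0.21 and 0.98 in RM-Zscan4-. Replicate 3 of RM-Zscan4- was therefore the highest of its group for *Zscan4* too, and whether it held more Zscan4+ cells was not tested.

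**Figure D2:**
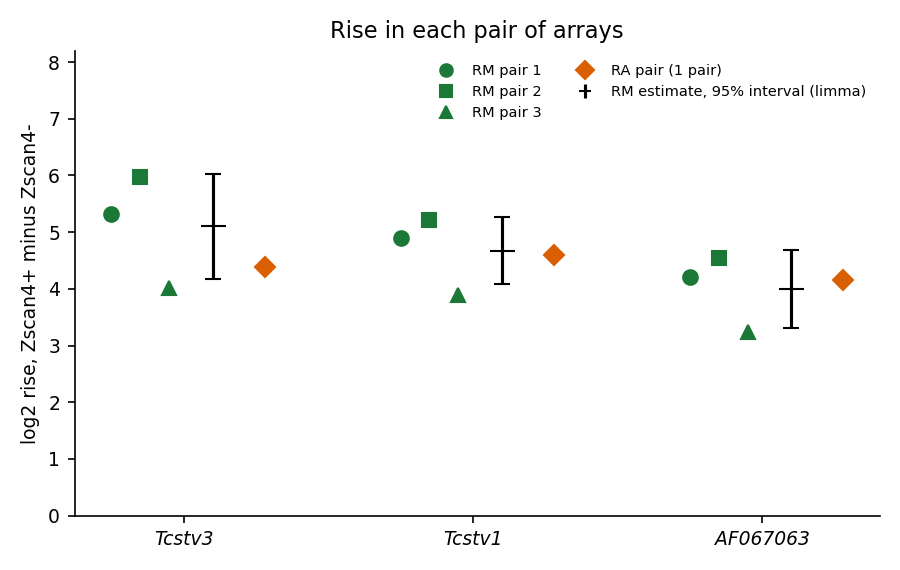
The log2 difference between the Zscan4+ and the Zscan4- array is plotted for each RM pair (green) and for the RA pair (orange), with the RM estimate and its 95% interval from limma in black. Pair 2 has the largest and pair 3 the smallest rise in all 3 genes, and the RA points lie between 4.15 and 4.59.

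The time of image extraction in the scanner files set RM replicates 1 and 3 apart from RM replicate 2. Within the first batch the rise was 4.67 for *Tcstv3*, 4.40 for *Tcstv1* and 3.73 for *AF067063* (log2). Within the second it was 5.97, 5.21 and 4.54, from 1 array of each sort. With the batch as a block in limma, the adjusted p was 0.0391, 0.0189 and 0.0219 in the same order.

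The 3 rises could also be set against each other within a pair, since the same arrays carry all 3 probes. *Tcstv3* rose more than *AF067063* by 1.11, 1.44 and 0.77 (log2) in RM pairs 1, 2 and 3. *Tcstv1* rose more than *AF067063* by 0.70, 0.67 and 0.65. *Tcstv3* exceeded *Tcstv1* by 0.42, 0.76 and 0.12. The order *Tcstv3*, *Tcstv1*, *AF067063* was thus the same in all 3 RM pairs, and the step from *AF067063* to *Tcstv1* varied least. In the RA pair the corresponding differences were 0.24, 0.44 and -0.20, so *Tcstv1* rose the most there by the ratio, though not by the Cy3 channel alone, where the RA rise was 6.81 for *Tcstv3* and 6.11 for *Tcstv1*. These differences between probes were not tested.

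In RA, the 3 genes were again high in the Zscan4+ and low in the Zscan4- array. *Tcstv3* reached a log2 ratio of 5.56 with Emerald and 1.17 without it, a rise of 4.39 or 21.0-fold. *Tcstv1* had 5.07 and 0.48, and the rise was 4.59. *AF067063* had 4.43 and 0.28, and the rise of 4.15 was 17.7-fold. All 3 were past 3-fold, as were 204 of 41958 probes (0.486%). The gene names come from a list that the study drew up by its own RA fold, so the probes were named for being high in RA-Zscan4+. These RA rises are therefore given with no test. The folds in the study's list are larger than those here for *Tcstv3* and *Tcstv1*, and they put *Tcstv3* first of the 3 genes. There was 1 array of each sort in RA, and hence no replicate check.

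**Figure D3:**
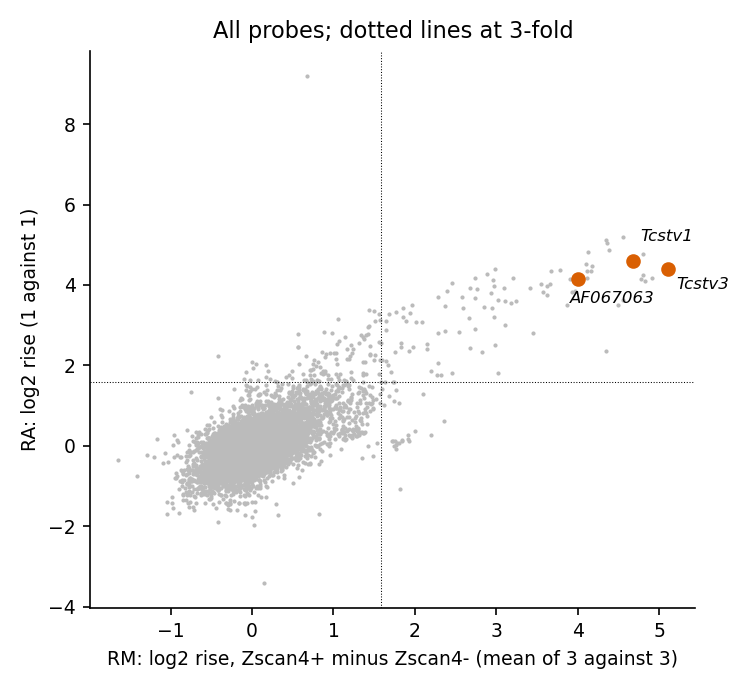
Each grey point is a probe, with its log2 rise from RM-Zscan4- to RM-Zscan4+ on the horizontal axis and from RA-Zscan4- to RA-Zscan4+ on the vertical axis. *Tcstv3* (5.10, 4.39), *Tcstv1* (4.67, 4.59) and *AF067063* (4.00, 4.15), in orange, lie at the upper right, past the dotted 3-fold lines.

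Whether the rise differed between RA and RM was tested as an interaction in limma, which takes the single RA arrays to vary like the RM arrays. For *Tcstv3* the RA rise minus the RM rise was -0.71 (log2, SE 0.76, 95% interval -2.55 to 1.13). For *Tcstv1* it was -0.08 (SE 0.49, 95% interval -1.26 to 1.10). For *AF067063* it was 0.15 (SE 0.56, 95% interval -1.22 to 1.52). None of the 3 passed the test, and with all arrays in the fit the intervals leave room for a change of more than 2-fold in either direction. Over the whole array, 0 of 41958 probes (0%) had an adjusted p under 0.15 in limma, while 1120 had an unadjusted p under 0.05. The t-statistics of the methods called 0 as well, with 128 at an unadjusted p under 0.05. For *Tcstv3* the difference was -1.14 (SE 0.34) when replicate 3 of RM-Zscan4- was left out and -0.42 when replicate 2 was. It stayed below 0 without any 1 RM array and was never past the adjusted threshold. The sign for *Tcstv1* and *AF067063* depended on which RM array was left out, as it ranged from -0.28 to 0.10 and from -0.16 to 0.41.

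The levels were then set between media within each sort. Each RA group is 1 array, so the spread in these tests comes from the RM arrays alone. A call between media needed only an adjusted p under 0.15, in either direction and with no fold limit, unlike the enriched probes above. A difference that was not called does not show equal levels. Among Zscan4- cells, the RA array lay above all 3 RM arrays by the ratio for each gene, most for *Tcstv3*. That gene had 1.17 against a highest RM value of 1.01. By processed Cy3 alone this held for *Tcstv3* and *Tcstv1*, but *AF067063* had 557 against 657 in RM-Zscan4- replicate 3. The Zscan4- signals in Cy3 also lay low, as given below. The difference in mean was 1.01 for *Tcstv3* (log2, SE 0.54, 95% interval -0.29 to 2.32), 0.47 for *Tcstv1* (SE 0.34) and 0.25 for *AF067063* (SE 0.40). The limma adjusted p was 0.528, 0.679 and 0.886, so none was called, against 2.82% of 41982 probes. Without replicate 3 of RM-Zscan4- the *Tcstv3* difference was 1.45 and the adjusted p 0.146. *Zscan4* itself differed by 1.44 (SE 0.38) in the same comparison, with an adjusted p of 0.200.

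Among Zscan4+ cells the RA array was, by the ratio, above the highest RM array for *Tcstv3* (5.56 against 5.55) and for *Tcstv1* (5.07 against 5.05). For *AF067063* it was below the highest RM array (4.43 against 4.56). The differences in mean were 0.30, 0.39 and 0.40 (log2), with adjusted p of 0.892, 0.747 and 0.788 in limma, against 2.65% of probes called. From the highest to the lowest mean level, the groups ran RA-Zscan4+, RM-Zscan4+, RA-Zscan4-, RM-Zscan4- for each gene. With 1 RA array of each sort, the order of the media within a sort has no replicate check. Both RA arrays were also extracted in a batch of their own, and the effect of RA cannot be told apart from that of the batch.

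The 2 dyes were next looked at one by one. The Cy3 signal of *Tcstv3* above local background was 18283, 20343 and 10789 intensity units in RM-Zscan4+ and 17083 in RA-Zscan4+. In RM-Zscan4- it was 117, 73.4 and 260, and 171 in RA-Zscan4-. The lowest of these was still 1.87 times the 95th percentile of the negative control spots of its array. The software marked all 24 spots of the 3 genes as well above background, none was saturated in either dye, and none carried an outlier flag. That mark was also given to the negative controls, so the percentile is the more telling comparison.

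For *Tcstv1* the Cy3 signal was 9072, 8484 and 3629 in RM-Zscan4+ and 6868 in RA-Zscan4+. It was 109, 79.7 and 156 in RM-Zscan4- and 115 in RA-Zscan4-. *AF067063* had 3715, 3677 and 1639 in RM-Zscan4+ and 2995 in RA-Zscan4+, against 124, 83.5 and 155 in RM-Zscan4- and 84.8 in RA-Zscan4-. The Zscan4- signals of all 3 genes thus lay in one narrow band, between 1.87 and 5.29 times the 95th percentile of the controls.

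**Figure D4:**
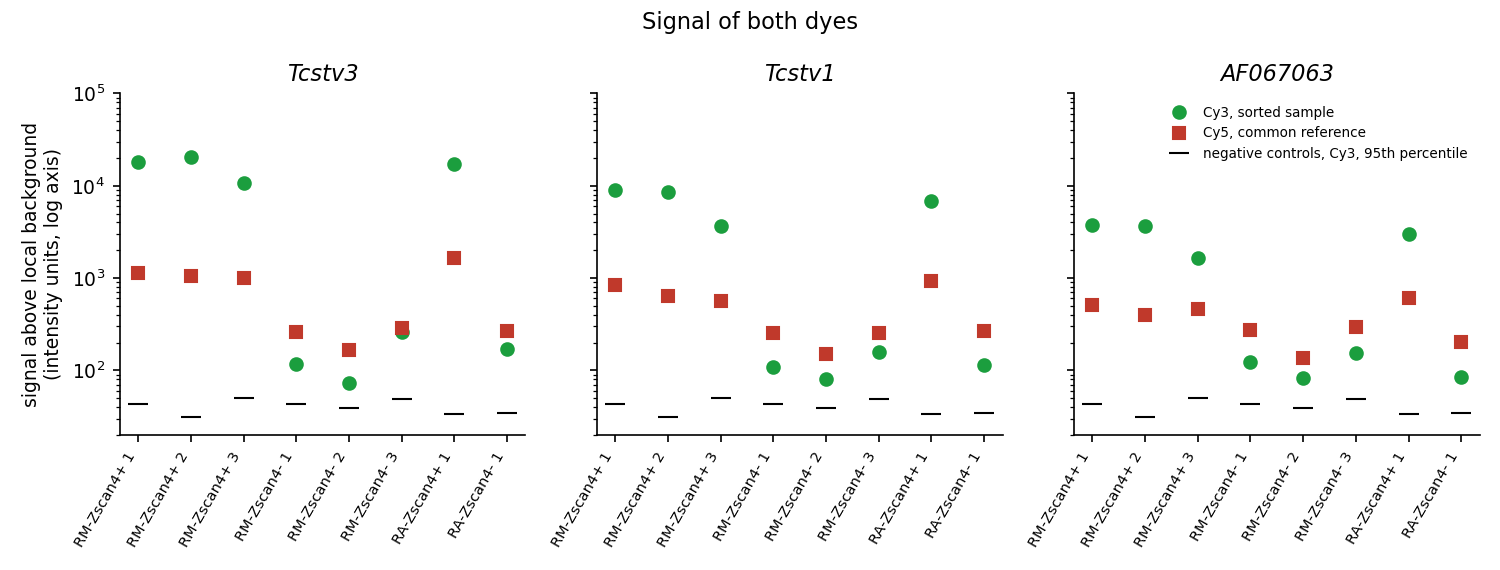
Signal above local background is plotted on a log axis for each of the 8 arrays, in green for the sorted sample (Cy3) and in red for the common reference (Cy5), with the 95th percentile of the Cy3 signal of the negative controls as a dash. Both dyes are higher on the Zscan4+ arrays, and the Cy3 signal falls to within 1.87 to 5.29 times the dash on the Zscan4- arrays.

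The Cy5 signal moved as well, although the same reference was put on every array. On the RM-Zscan4+ arrays *Tcstv3* had a Cy5 signal of 1144, 1043 and 1002, against 262, 167 and 286 on the RM-Zscan4- arrays. On the RA arrays it was 1634 and 264. The Cy5 gain from the Zscan4- to the Zscan4+ array came to between 4.32% and 8.10% of the Cy3 gain for *Tcstv3*, between 5.84% and 9.62% for *Tcstv1*, and between 6.73% and 13.9% for *AF067063*. Each array was also scaled to its own median Cy5 signal. Over all 42034 probe spots, the median log2 difference in Cy5 between the arrays of a pair was then between -0.04 and 0.05. The scaling keeps this median small, so it does not show whether Cy5 moved in general. The source of the Cy5 gain was not tested.

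A higher Cy5 signal lowers the ratio, and the rises were larger by the Cy3 channel alone, scaled to the 75th percentile of each array. The RM rise was then 7.13 (log2) or 139.9-fold for *Tcstv3*, 6.12 or 69.7-fold for *Tcstv1*, and 4.83 or 28.4-fold for *AF067063*. The limma adjusted p was 0.00012, 0.00015 and 0.00044. In RA the rise by Cy3 alone was 6.81, 6.11 and 5.41, so that *Tcstv3* rose the most in both media on this scale. The fold by Cy3 alone was 4.07 times that by the ratio for *Tcstv3* in RM and 1.78 times for *AF067063*.

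*BC147527*, a protein-coding gene that lies next but one to *Tcstv3* in the RefSeq order, was the only other gene of the stretch with a named probe. The study's list calls this probe LOC625360, and it was assigned to *BC147527* by that gene ID alone, with its place in the Tcstv family not settled. It had log2 ratios of 1.79, 2.47 and 1.05 in RM-Zscan4+ and of -0.41, -0.51 and -0.61 in RM-Zscan4-. The groups did not overlap, but the Cy3 signal on the RM-Zscan4- arrays was 1.26, 0.994 and 0.967 times the 95th percentile of the negative controls. The low side was thus hardly or not above background, and its arrays have no order. The measured difference of 2.28 (SE 0.34) was past the thresholds with a limma adjusted p of 0.127, and its size is open to that limit. In RA the ratio was 2.48 and -0.31. Of the 8 neighbouring and related genes looked for, the other 7 had no named probe.

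The pattern of the 3 genes over the 8 arrays was then compared with that of every other probe. Each probe was centred on its own mean, and the distance was the root mean square (RMS) difference from the mean of the 3 genes. *Tcstv1* lay at 0.0773 from that mean, *Tcstv3* at 0.310 and *AF067063* at 0.322. The 3 genes make up the mean, so their own distances to it are small in part by construction. Among the 41113 probes with a value on each array, 57 besides the 3 genes lay within 1 unit (log2). The 5 nearest were Z00060619-1 (0.211), Z00059654-1 (0.247), *1700001F09Rik* (0.273), Z00064570-1 (0.278) and *A530040E14Rik* (0.291), of which 3 have no name here. All 5 lay nearer to the mean than *Tcstv3* and *AF067063* did, so the pattern was not particular to the 3 genes.

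The nearest probes rose by between 4.11 and 4.80 (log2) in RM and by between 4.15 and 4.77 in RA. *A530040E14Rik*, a gene known only by its clone name, varied the most among the RM-Zscan4+ arrays, with a centred value of 3.05 in replicate 2 and 1.32 in replicate 3. None of the 5 shared more than 8 bases in a row with a probe of the 3 genes. *Gm12794* had rank 7 (0.318) and *BC061212* rank 10 (0.331). *Zscan4* had rank 12 (0.337), and it lay above the mean of the 3 genes on both RA arrays. *BC147527* had rank 59 (1.11), with a smaller measured rise.

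**Figure D5:**
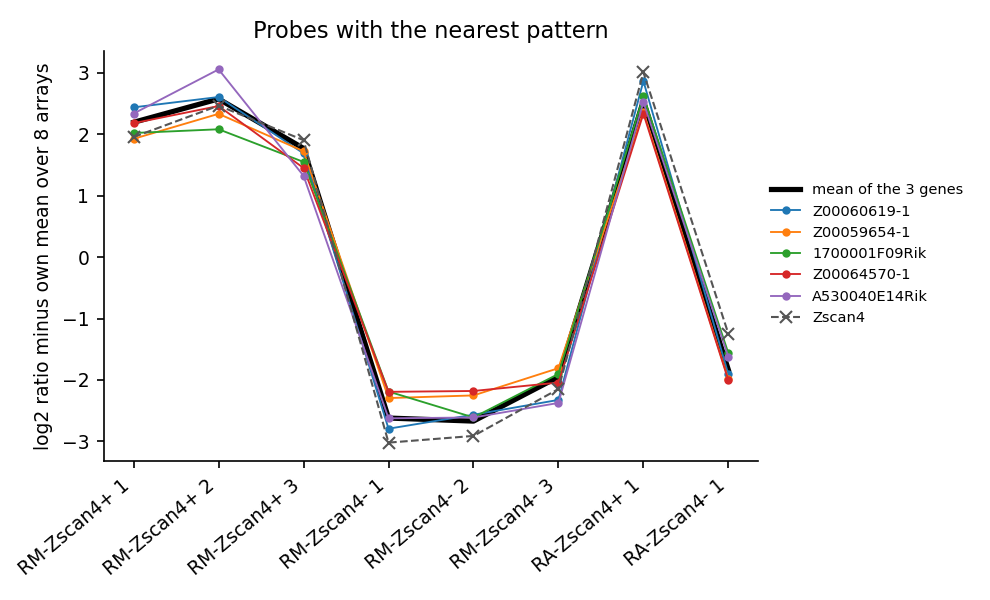
The log2 ratio minus its own mean over the 8 arrays is plotted for the mean of *Tcstv3*, *Tcstv1* and *AF067063* (thick black line), for the 5 probes with the smallest RMS difference from it, and for *Zscan4* (dashed). The lines stay within about 1 unit of each other on every array, and *Zscan4* is the highest on both RA arrays.

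Other genes of the *Zscan4* metastate and the 2-cell embryo were looked up by symbol, and 10 of the 21 listed had a named probe. All 10 owe their name to the study's list of probes high in RA-Zscan4+, so they were picked for being high in Zscan4+ cells, and their RM counts and median are a description and no independent evidence. In RM, 7 of the 10 rose past the thresholds, as did 0.193% of all probes, and 0 fell, with a median of 3.18 (log2) against -0.01 over all probes. *Zscan4* rose by 4.80 (SE 0.27) and *BC061212*, a PRAME-like gene, by 4.10 (SE 0.23), both with a limma adjusted p of 0.0038. *Eif1a*, named for translation initiation factor 1A, rose by 3.24 (adjusted p 0.0046). *Gm12794*, now *Pramel19*, rose by 4.12 (adjusted p 0.0369), although its Cy3 signal in RM-Zscan4- was only 1.02 to 1.41 times the 95th percentile of the negative controls. *Tmem92* rose by 4.56 (adjusted p 0.0477), *Gm4340* by 3.11 (adjusted p 0.0093) and *Zfp352* by 1.76 (adjusted p 0.0931).

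The other 3 genes of that list stayed under 3-fold in RM. *Tdpoz5*, of the TD and POZ domain family, had a difference of 0.84 (log2, adjusted p 0.0108). *Dub2*, a deubiquitinating enzyme, had 0.83 (adjusted p 0.341), and *5830484A20Rik*, which RefSeq lists as *Sp110*, had 0.90 (adjusted p 0.136). Only *Tcstv3* had a larger RM rise than *Zscan4* among the 3 genes of the cluster and these 10. In RA all 10 were past 3-fold, with a median of 3.30, which follows from the list that named them and is no independent evidence. No probe of an ESC marker (0 of 7) or of a fibroblast feeder marker (0 of 4) had a name here, so the labelled cell type was not checked against its markers.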

How the data were processed

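The 8 arrays were read from the scanner files. The authors deposited intensity values from Agilent Feature Extraction (A.7.5.1 per the file headers), after subtraction of local background and normalization of the dyes, together with flags for saturation, outliers and signal over background. They also deposited a series matrix on the log10 scale, used as an alternative. For at least 99.52% of its values it equalled the Cy3 to Cy5 log ratio of the scanner files, after centring on the Cy5 mean of the probe, within 0.001.

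Processed Cy3 was divided by processed Cy5 and turned to log2, so positive values mean more RNA in the sorted cells than in the reference. No dyes were swapped. Controls and outlier-flagged spots were removed but saturated ones were not, and repeated spots of a probe were averaged. The filter on dim probes removed none of the 42006 probes. Tests used limma 3.58.1 (lmFit, then eBayes) under R 4.3.3 on 4 group means. The p-values were adjusted by Benjamini-Hochberg over all probes, and calls of enriched probes needed a false discovery rate under 0.15 and 3-fold. Comparisons between media used the rate alone, in either direction. The scripts were tested on simulated data. Sequences were aligned with Biopython 1.88.

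The replicate numbers of the labels were taken to pair the RM arrays, because the deviations from the group means correlated for arrays of the same number (0.388, 0.562 and 0.592). The number of arrays limits the precision. Over local background, the signal of the median probe lay between 114.4 and 240.9 in Cy3, and between 254.5 and 500.9 in Cy5.

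Named were the 3 genes, the *Zscan4* metastate and 2-cell list, the related and neighbouring genes, and the 5 probes nearest in pattern. The genes and lists were chosen with earlier results of these data known. Only the 128 probes of the study's own RA list have a gene name here, of which 84 matched RefSeq. Alternatives were other background and dye corrections, Cy3 alone, the series matrix, other filters, blocks, thresholds and t-statistics, and leaving out each RM array.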

Additional observations from a re-analysis of the deposited data

Results flagged for a closer look

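The Cy5 channel held the same reference on every array and entered no comparison of its own, yet it was brighter on the Zscan4+ than on the Zscan4- array of every pair for all 3 genes. For *Tcstv3* the Cy5 signal above background was 4.36, 6.25 and 3.50 times higher in RM pairs 1, 2 and 3 and 6.19 times higher in the RA pair. For *Tcstv1* it was 3.26, 4.27 and 2.26 times higher in the RM pairs and 3.43 times higher in the RA pair. For *AF067063* it was 1.89, 2.94 and 1.57 times higher in the RM pairs and 2.99 times higher in the RA pair. With each array scaled to its median Cy5 signal, *Tcstv3* ranked 11, 8, 7 and 11 among the 42034 probe spots in Cy5 difference. *Tcstv1* ranked 17, 15, 48 and 28, and *AF067063* ranked 165, 45, 1475 and 38. On this scale *AF067063* lay below the 99th percentile of all spots in RM pair 3 (0.55 against 0.77, log2). Cy5 was also brighter on the Zscan4+ arrays for *Zscan4* (2.41 to 6.76 times), *Eif1a* (3.28 to 5.79 times) and *Gm4340* (2.82 to 6.85 times). Of the same list, *BC061212*, *Gm12794* and *Dub2* were brighter in every pair too. The others were dimmer in some pairs: *Tmem92* (0.87 times, RM pair 1), *Tdpoz5* (0.85, RM pair 2) and *5830484A20Rik* (0.97, RM pair 2). *Zfp352* was dimmer in RM pair 3 (0.90 times) and in the RA pair (0.85 times). The cause was not tested.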

How the results depend on the processing

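The RM rises of all 3 genes kept their direction under all 17 alternatives that gave a p-value. Dropping the filter on dim probes or fitting the RM arrays alone repeated the main result exactly, so these alternatives add no check. The calls held under all but the t-statistics of the methods. There the values were unchanged (5.10, 4.67 and 4.00) and the adjusted p was 0.475, 0.293 and 0.445. These statistics called 0 of 42006 probes in RM, with 627 at an unadjusted p under 0.05, and the cause was not tested. Leaving out 1 RM array gave rises of 4.81 to 5.53 for *Tcstv3*, 4.49 to 4.87 for *Tcstv1* and 3.73 to 4.31 for *AF067063*, with an adjusted p of at most 0.0904, and between 52 and 93 enriched probes, the 52 without RM-Zscan4+ replicate 1. With the replicate block, the adjusted p was 0.0480, 0.0426 and 0.0433 and 104 probes were enriched in RM, so no call of the 3 genes changed. At 2-fold, 497 probes were higher in RA-Zscan4+. The RA rise minus the RM rise of *Tcstv1* turned from -0.08 to 0.0259 with normexp and loess. Without 1 RM array it ranged from -0.28 to 0.10, with values above 0 without RM-Zscan4+ replicate 2 (0.10), RM-Zscan4- replicate 1 (0.0278) and RM-Zscan4- replicate 2 (0.0072). That of *Tcstv3* ranged from -1.14, without RM-Zscan4- replicate 3, to -0.42, without RM-Zscan4- replicate 2. That of *AF067063* ranged from -0.16, without RM-Zscan4+ replicate 3, to 0.41. The level of *Tcstv3* in RA-Zscan4- minus that in RM-Zscan4- ranged from 0.72 to 1.45 when 1 array was left out. Only at 1.45, without RM-Zscan4- replicate 3, was it past the limit on the adjusted p, and 1.45 (log2) is under 3-fold. Pairs of both media were also taken as blocks, an alternative added after seeing the data, and the adjusted p for the difference between the rises was 0.943, 0.994 and 0.986. On the Zscan4- arrays the Cy3 signals were at most 5.29 times the 95th percentile of the negative controls, which limits how well a low level can be told from background.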
